A study of Mus musculus with 7 samples.

Results

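Epithelial-mesenchymal transition (EMT) is run by a small set of transcription factors, and 10 of them were followed here through single-cell libraries of mouse mammary tumors. The set held 8 factors of the mesenchymal side, Zeb1, Zeb2, Twist1, Twist2, Snai1, Snai2, Prrx1 and Tcf4, and 2 of the epithelial side, Grhl2 and Ovol1. They were taken by name, as the rows of the count matrices that carry these symbols, which made 10 of 31053 genes. Each was counted in unique molecular identifiers (UMIs, which mark single captured transcript molecules) over the 12168 cells with at least 1000 UMIs, at least 500 genes and under 20% mitochondrial UMIs.

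The study set tumor cells of different mouse models side by side to ask how they relate to the mammary hierarchy. BRCA1-null tumors arose spontaneously in mice with both Brca1 and Trp53 floxed (F/F) and a K14-Cre transgene, whose keratin 14 promoter drives Cre in basal epithelial cells. Neu tumors were spontaneous tumors of MMTV-Neu mice, PyMT tumors were transplants of FF99WT, a single cell line from an MMTV-PyMT tumor that carried floxed FIP200 alleles and no Cre recombinase, and these 3 types were of the FVB/NJ strain with 2 libraries (A and B) each. The MMTV-Neu strain had also been crossed to floxed FIP200 mice, and the tumor of Neu A carried such alleles with no Cre; for Neu B they are not given in the sources used here. The 4T1 library, from a transplant of the GFP-transduced 4T1 mammary carcinoma line in BALB/C, stood alone. All mice were adult, no tumor was treated, tumors were taken at about 1000 mm3, and all cells were sorted as CD24+ and negative for CD31, CD45 and Ter119, a gate meant for epithelial cells that removes endothelial, blood and red cells. Each library was prepared from its own tumor, and the second replicates were sequenced in a second batch. Both PyMT libraries come from 1 line, so that their spread covers transplants of that line only. With 2 tumors per type, the p-values between tumor types measure the spread between these tumors. In the later edgeR fits within BRCA1-null tumors the p-values match a normal test of log2 change over standard error. Their spread is shared over genes, so they do not measure how far 1 factor differed between A and B.

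As background, ZEB, SNAIL and TWIST proteins are best known as repressors of cell adhesion genes of epithelia. ZEB and SNAIL proteins bind the E-box with zinc fingers, TWIST proteins and TCF4 bind E-boxes as basic helix-loop-helix factors, and PRRX1 is a homeodomain protein of limb and connective tissue mesenchyme. GRHL2 and OVOL1 act the other way: GRHL2 keeps up the expression of junction genes and OVOL1 represses mesenchymal regulators. In the mammary gland Snai2 is also a factor of normal basal cells, so that its presence does not by itself mark a mesenchymal cell.

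Promoter sequence shows the letters to which this family points. RefSeq promoters on GRCm38.p6 were matched for 5 of the 10 factors (Zeb2, Twist1, Twist2, Snai1 and Prrx1), and the other factors (Zeb1, Snai2, Tcf4, Grhl2 and Ovol1) are named only. The E-box CACCTG, or CAGGTG on the other strand, was searched in the 250 bases before each start, where each motif is the reverse complement of the other, so that both strands were covered. It stood in 17.2% of all 32851 such windows and in a window of 19.4% of 27025 genes. It was found in 1 of the 5 factors (Snai1), in 11 of the 17 matched genes of a list of 26 epithelial junction, keratin and splicing genes (64.7%), and in 0 of the 14 matched genes of a list of 24 mesenchymal genes. The windows below are Snai1 (chr2:167537945-167538194, plus strand) and Twist1 (chr12:33957421-33957670, plus strand), as a factor with and a factor without the motif, Epcam (chr17:87635729-87635978, plus strand), whose UMIs divide the BRCA1-null cells further on, and Cldn4 (chr5:134946935-134947184, minus strand), a tight junction claudin. Each is written 5′ to 3′ on the gene's strand and ends at the base before the transcript start, with matches in capitals.
Snai1: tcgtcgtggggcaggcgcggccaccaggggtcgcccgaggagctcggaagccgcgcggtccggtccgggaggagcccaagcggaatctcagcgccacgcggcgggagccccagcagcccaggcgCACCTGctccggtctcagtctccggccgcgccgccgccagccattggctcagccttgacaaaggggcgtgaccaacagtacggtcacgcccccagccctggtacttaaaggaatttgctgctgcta
Twist1: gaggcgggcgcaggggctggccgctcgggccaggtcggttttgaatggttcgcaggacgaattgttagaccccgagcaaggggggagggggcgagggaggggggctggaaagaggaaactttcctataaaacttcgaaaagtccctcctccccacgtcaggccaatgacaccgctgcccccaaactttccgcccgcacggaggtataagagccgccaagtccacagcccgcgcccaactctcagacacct
Epcam: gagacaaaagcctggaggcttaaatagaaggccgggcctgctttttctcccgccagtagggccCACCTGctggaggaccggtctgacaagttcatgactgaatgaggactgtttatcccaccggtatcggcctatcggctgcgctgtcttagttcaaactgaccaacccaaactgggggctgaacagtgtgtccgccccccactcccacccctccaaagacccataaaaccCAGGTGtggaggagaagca
Cldn4: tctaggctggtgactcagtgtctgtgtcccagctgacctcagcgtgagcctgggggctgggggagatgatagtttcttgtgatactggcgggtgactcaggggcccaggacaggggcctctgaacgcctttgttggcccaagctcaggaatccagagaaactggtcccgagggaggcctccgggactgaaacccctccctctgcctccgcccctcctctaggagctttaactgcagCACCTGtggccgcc
The Snai1 match opens 126 bases before the start, those of Epcam 187 and 19 bases before it, and that of Cldn4 14 bases before it. A match is a run of letters and not a measured binding site.

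The libraries held between 245 (BRCA1-null A) and 2308 cells (Neu A), with 5578911 to 37693300 UMIs in all and medians of 8609 to 19410.5 UMIs per cell. BRCA1-null A, with 245 cells against 2078 in BRCA1-null B, was the thinnest. Of the barcode sequences 118 occurred in more than 1 library, in 213 cells. Brca1 was at 9.68 and 2.81 UMIs per 1000000 UMIs (CPM) in BRCA1-null A and B and at 0.276 to 1.35 CPM in the PyMT and Neu libraries, while Trp53 was at 39.1 and 25.1 CPM against 44.6 to 91.1. These are reads of the 3′ ends of transcripts, and whether they fall inside the deleted parts is not given, so they do not check the alleles. Epcam, an epithelial marker, was at 268.9 CPM in BRCA1-null A and at 1449 to 3417 CPM in the other libraries, and leukocyte markers (10 genes, summed) reached 63.99 and 106.7 CPM in BRCA1-null A and B, with Cd3e at 0 in A, against 2.55 to 14.03 CPM in PyMT and Neu. In bulk sums like these, fewer cells of a type and fewer molecules per cell cannot be told apart.

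The E-box proteins ZEB1 and ZEB2 separated the BRCA1-null tumors from the other FVB/NJ models. Zeb1 (chromosome 18) was at 39.3 CPM in BRCA1-null A and 17.0 in B, at 0.276 and 0.159 in PyMT A and B, and at 0.226 and 0.386 in Neu A and B. Zeb2 (chr2:44983632-45117395) was at 12.01 CPM in BRCA1-null A and 25.4 in B, at 0.386 and 0.345 in the PyMT pair, and at 0.0452 and 0.0891 in the Neu pair. Neither gene's BRCA1-null libraries overlapped any PyMT or Neu library, but the order of A and B was opposite for these paralogs.

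TWIST1, a mesoderm factor that also drives invasion in mammary carcinoma models, had 3 levels. Twist1 (chr12:33957671-33959829) was at 36.6 CPM in BRCA1-null A and 66.1 in B, PyMT A and B had 6.51 and 7.38 CPM, and Neu A and B had 0.226 and 0.356. Its paralog Twist2 (chr1:91801461-91848028) was at 6.27 and 7.49 CPM in the BRCA1-null pair, where PyMT A and B had 0.0552 and 0.133 CPM (1 and 5 UMIs). The 5 UMIs of PyMT B all lay in 1 cell, which was rich in collagen as defined below. No Twist2 UMI was seen in either Neu library, which allows up to 0.136 and 0.0891 CPM at 3 counts per library and puts the BRCA1-null mean at least 61.2-fold higher.

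Of the SNAIL genes, Snai2 (chr16:14705852-14709385) was at 7.89 and 13.1 CPM in BRCA1-null A and B and at no more than 0.265 CPM in the 4 PyMT and Neu libraries. Snai1 (chr2:167538195-167542814) was different, with 10.6 and 17.1 CPM in the BRCA1-null pair, 8.50 and 12.5 in PyMT A and B, and 6.10 and 0.921 in Neu A and B. BRCA1-null A thus lay below PyMT B, and the Neu libraries differed 6.63-fold from each other.

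Prrx1 (chr1:163245119-163313710), a mesenchyme homeobox gene, was at 11.8 CPM in BRCA1-null A and 50.03 in B, and at 0.1104 to 0.226 CPM in the 4 PyMT and Neu libraries. In Neu A 1 cell rich in collagen held 4 Prrx1 UMIs and all other cells held 1. Tcf4 (chromosome 18), an E protein that pairs with other helix-loop-helix factors, was present everywhere, at 65.4 CPM in BRCA1-null A and 55.01 in B, 12.03 and 13.6 CPM in PyMT A and B, and 31.7 and 14.1 CPM in Neu A and B. The lowest BRCA1-null library of each gene lay above the highest PyMT or Neu library.

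The epithelial factors differed between the BRCA1-null libraries. Grhl2 (chr15:37233036-37363569) was at 2.69 and 10.6 CPM in BRCA1-null A and B, 5.63 and 4.43 in PyMT A and B, and 11.5 and 7.96 in Neu A and B. Ovol1 (chr19:5549136-5560646) was at 1.61 and 18.4 CPM in BRCA1-null A and B, 27.8 and 26.6 in PyMT A and B, and 10.4 and 10.1 in Neu A and B. BRCA1-null B thus held 3.93 times the Grhl2 and 11.4 times the Ovol1 of A, and the BRCA1-null libraries bracketed Neu for Ovol1. The PyMT pair lay above the Neu pair for Ovol1 and below it for Grhl2.

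**Figure D1:**
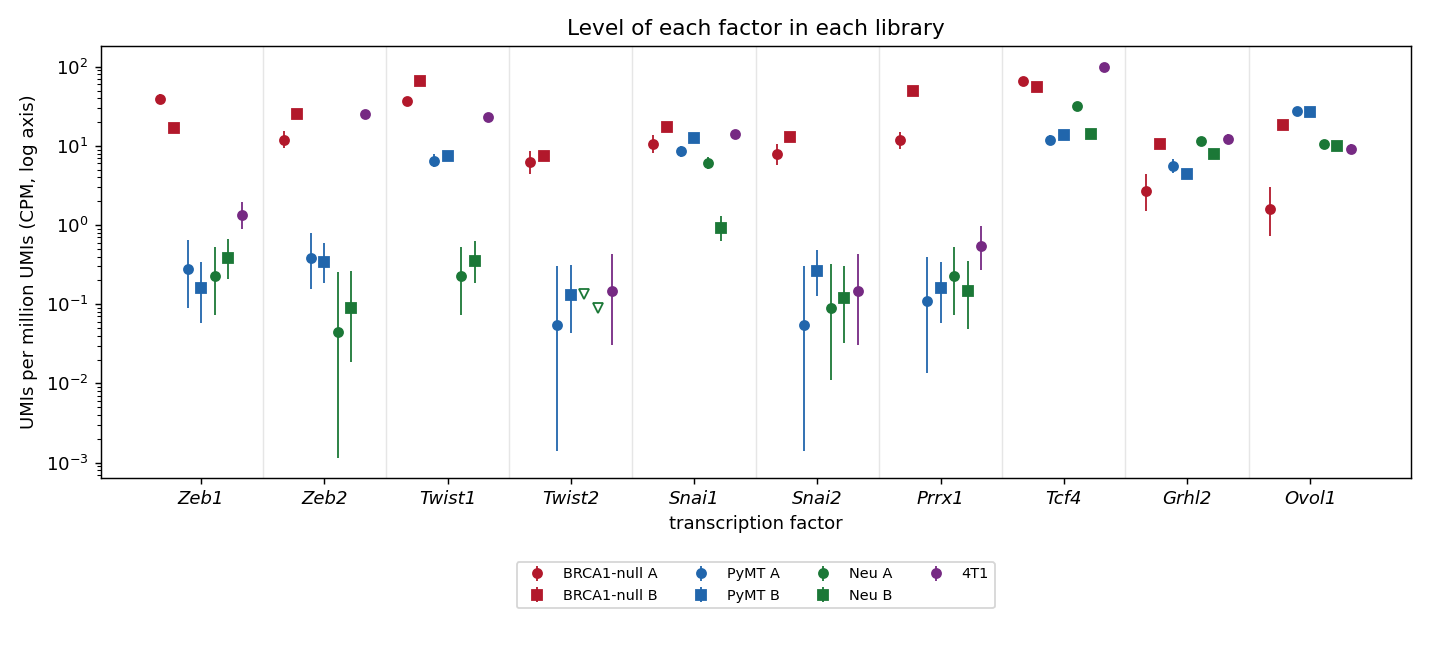
CPM (log axis) of each factor in each of the 7 libraries, circles for A and 4T1 and squares for B, with exact 95% Poisson intervals that cover counting error only. Open triangles mark the limit of 3 counts where no UMI was seen. For Zeb1, Zeb2, Twist1, Twist2, Snai2, Prrx1 and Tcf4 both BRCA1-null libraries lie above all 4 PyMT and Neu libraries, whereas Snai1, Grhl2 and Ovol1 overlap. The share of all genes with this separation was not counted, and 17.8% of all genes tested were called higher in BRCA1-null tumors.

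In the fit over the 6 FVB/NJ libraries (edgeR quasi-likelihood test, Benjamini-Hochberg adjustment over 13950 genes), 7 of the 10 factors were higher in BRCA1-null tumors when set against PyMT and Neu averaged, where 17.8% of all genes tested were, and 0 were lower, where 9.72% of all genes were (also 0 at an unadjusted p under 0.05). Zeb1, Zeb2, Twist2, Snai2 and Prrx1 passed the filter on low counts only through their BRCA1-null counts. They could thus not have been called lower here. With no such filter 7 factors passed as well, where 3727 of 20397 genes were higher and 1894 lower. Markers of other cells moved with this contrast: 7 of 8 fibroblast markers were higher (median log2 change 4.97, sums of 250.6 and 765.2 CPM in BRCA1-null A and B against 1.71 to 16.4 in PyMT and Neu), 7 of 7 tested endothelial markers (median 6.76, sums of 67.2 and 20.4 CPM against 0.902 to 2.26) and 7 of 8 tested leukocyte markers (median 4.35). The log2 fold changes were 6.42 ± 0.46 (SE) for Zeb1 (adjusted p = 0.00067), 6.57 ± 0.51 for Zeb2 (0.00077), 4.89 ± 0.39 for Twist1 (0.00080), 5.94 ± 0.58 for Snai2 (0.0015), 7.34 ± 0.69 for Prrx1 (0.0013) and 1.54 ± 0.30 for Tcf4 (0.012). Twist2 passed at an adjusted p of 0.0015, and its bound with Neu at 3 counts is a log2 fold of 6.07. Snai1 missed the threshold at 0.98 ± 0.64 (0.29), as did Grhl2 at -0.24 ± 0.56 (0.78) and Ovol1 at -0.88 ± 0.78 (0.44). Over the 8 mesenchymal factors the median log2 change was 6.18 (6.003 with Twist2 at its bound), against 0.09 over all genes. That median includes Zeb1, Zeb2, Twist2, Snai2 and Prrx1, which could not have been called lower, so it is not a test of direction.

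Tcf4 was the weakest of the calls, since without PyMT A or PyMT B its adjusted p was 0.058 and 0.053, leaving 6 factors called. Without Neu A, Snai1 joined at an adjusted p of 0.049. Without BRCA1-null B the count was 9, because Grhl2 (0.025) and Ovol1 (0.0018) were then lower in BRCA1-null A than in the other models. The 7 calls stood when cells with at least 2 leukocyte or at least 2 endothelial markers were removed, when collagen-rich cells were removed, and when only cells with an Epcam UMI were summed.

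Between PyMT and Neu, Twist1 alone passed, at a log2 change of 4.66 ± 0.54 higher in PyMT than in Neu (edgeR, adjusted p = 0.0051), which is a 25.3-fold difference between levels of 6.94 ± 0.61 and 0.291 ± 0.092 CPM (mean ± SD, n = 2). Of all genes 7.5% were higher and 9.38% lower in PyMT. The next factors, Twist2 (adjusted p = 0.067), Zeb2 (2.42 ± 0.77, 0.075), Snai1 (1.82 ± 0.78, 0.15) and Ovol1 (1.56 ± 0.89, 0.26), missed it. Without Neu A, Twist1 stood at 0.051 and no factor passed (edgeR, 3 at an unadjusted p under 0.05), and without either BRCA1-null library, which enter the shared spread, Zeb2 and Ovol1 passed beside it. PyMT and Neu differ in transplantation as well as in oncogene, and these cannot be told apart.

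**Figure D2:**
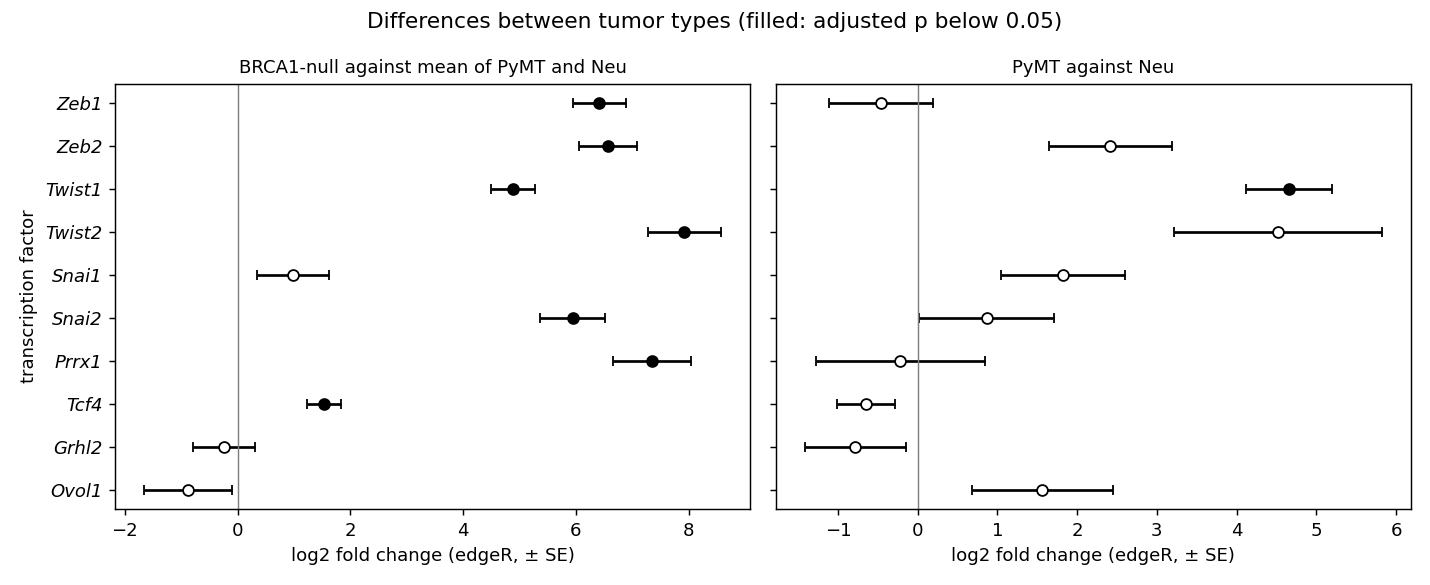
Log2 fold change with its SE (edgeR fit over 6 libraries) of each factor for BRCA1-null against the mean of PyMT and Neu (left) and for PyMT against Neu (right), filled where the adjusted p was below 0.05. 7 factors are filled on the left and 1, Twist1, on the right. The fitted values of Twist2, with no UMI in Neu, depend on the prior count.

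The 4T1 tumor carried part of the set. It had 99.0 CPM of Tcf4, 25.3 of Zeb2, 23.1 of Twist1 and 14.2 of Snai1, but 1.34 of Zeb1, 0.544 of Prrx1, and 0.148 each of Twist2 and Snai2 (3 UMIs each of 20205082). With 1 library in another strain these are values without a replicate. In 4T1, 4 cells rich in collagen, as defined below, held all 3 Twist2 UMIs and 2 of the 3 Snai2 UMIs. They held 7 Prrx1 UMIs against 4 in all other cells, but 1 Zeb1 UMI against 26. Against the mean of the BRCA1-null libraries the 4T1 level was 1.64 times as high for Tcf4, 1.35 times for Zeb2, 1.03 times for Snai1 and 0.450 times for Twist1, whereas it was 0.0475 times as high for Zeb1, 0.0176 times for Prrx1 and 0.0142 times for Snai2. Grhl2 at 12.4 CPM was above every PyMT and Neu library and Ovol1 at 9.16 CPM below them, while Vim, the mesenchymal intermediate filament, was at 2028 CPM, above both BRCA1-null libraries (1022 and 1718 CPM).

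Per cell, the factors are rare transcripts, so each cell was thinned to 3000 UMIs before counting cells with a UMI. A UMI of Zeb1 was then found in 11.7% of BRCA1-null A cells (95% exact interval 7.79 to 16.7) and in 5.31% of B cells, Prrx1 in 3.60% and 13.4%, Twist1 in 11.3% and 14.5%, and Zeb2 in 4.95% and 8.84%. In PyMT and Neu, Zeb1 reached at most 0.167%, Prrx1 0.0557%, and Zeb2 0.108%, while Twist1 was found in 1.62% and 2.17% of PyMT A and B cells, in 0.103% of Neu B cells and in none of 2075 in Neu A. These libraries do not measure free RNA of the BRCA1-null droplets, and its part in the BRCA1-null shares was not tested. Among cells of BRCA1-null B with an Epcam UMI and without high collagen the shares were 2.42% for Zeb1, 3.73% for Zeb2, 6.35% for Prrx1 and 12.4% for Twist1 (median 14457.5 UMIs), and among its cells with neither 11.7%, 27.9%, 38.7% and 31.5% (median 6842 UMIs). Without thinning, Zeb1 shares were 46.9% and 13.7% in BRCA1-null A and B and at most 0.651% in PyMT and Neu, and Prrx1 shares 13.9% and 26.1% against at most 0.326%. The thinning left out 23 cells of BRCA1-null A, 177 of B, 48 to 233 of each PyMT and Neu library and 66 of 4T1. In 4T1, 26.2% of cells had a Tcf4 UMI, 7.36% a Zeb2 UMI and 6.53% a Twist1 UMI, and 0.415% had a Zeb1 UMI.

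UMIs of several mesenchymal factors in the same cell were seen most often in BRCA1-null tumors and in 4T1. UMIs of at least 2 of the 8 were found in 18 of 222 cells of BRCA1-null A (8.11%, 4.88 to 12.5), in 343 of 1901 cells of B (18.0%, 16.3 to 19.8) and in 95 of 1685 4T1 cells (5.64%, 4.59 to 6.85). In PyMT A and B the shares were 0.2704% and 0.669%, in Neu A 0.337%, and in Neu B 0 of 1948 cells. UMIs of at least 3 were found in 1.80% and 6.996% of BRCA1-null A and B cells, in 0.593% of 4T1 cells and in no cell of the PyMT and Neu libraries, where the exact upper limits ran from 0.178% (Neu A) to 0.205% (PyMT B). The intervals cover counting error only, and cells of 1 tumor are not replicates. Shares that the single factors would give if seen independently were not computed, so no joint program is read from these counts. Tcf4 made up much of them: it was seen in 442 cells of 4T1, where 652 had any of the 8. In Neu A it was seen in 196 cells, where 231 had any.

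**Figure D3:**
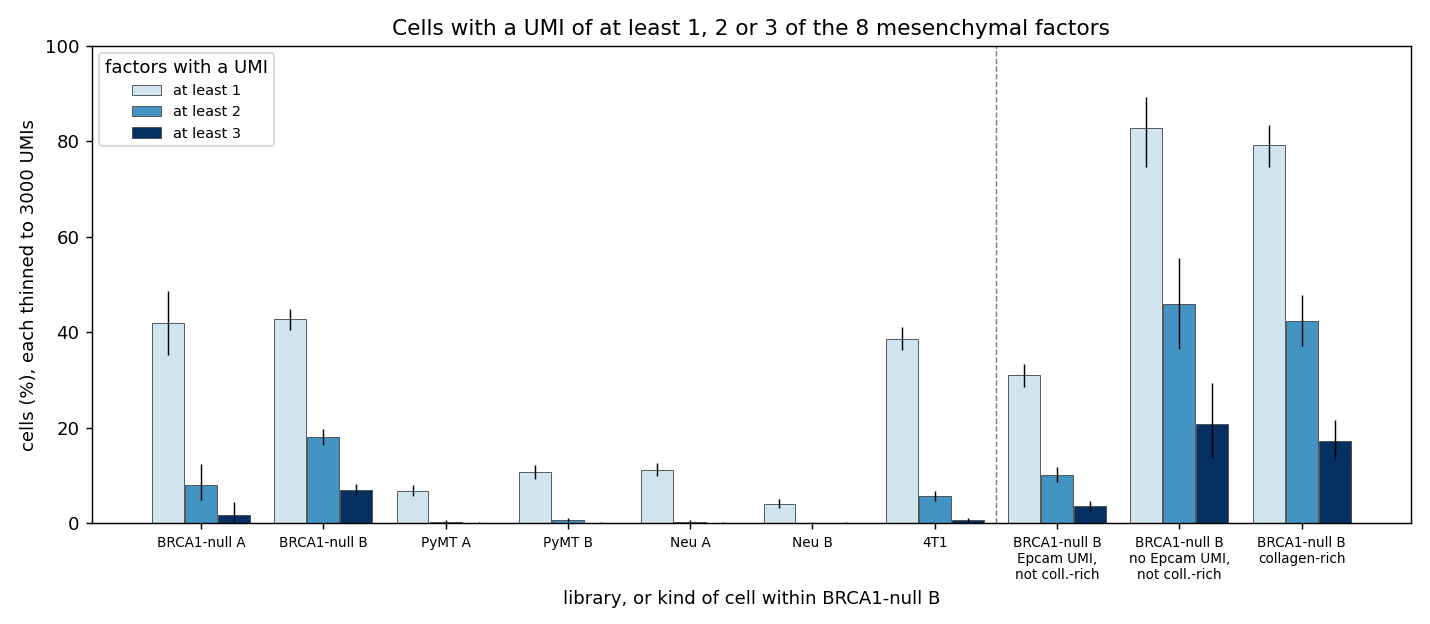
Percent of cells, each thinned to 3000 UMIs, with a UMI of at least 1, 2 or 3 of the 8 mesenchymal factors, with exact 95% binomial intervals, for the 7 libraries (left of the dashed line) and for 3 kinds of cell in BRCA1-null B (right). At least 2 factors are seen in 18.0% of BRCA1-null B cells, and in 10.2%, 45.9% and 42.4% of its 3 kinds of cell.

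Within the BRCA1-null tumors the factors were then compared between cells with and without a UMI of Epcam, the epithelial adhesion molecule. Cells without one were 67 of 245 in A and 288 of 2078 in B, against 5 to 11 per library in PyMT and Neu and 47 in 4T1. They were also shallower, with medians of 10344 against 21498 UMIs in A and 6884 against 12984.5 in B.

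In BRCA1-null B, cells without an Epcam UMI held 164.1 CPM of Prrx1 against 41.0 in cells with one, a ratio of 4.00 (3.54 to 4.51, exact interval for counting error). Zeb2 stood at 94.6 against 19.9 CPM, a ratio of 4.75 (4.02 to 5.59), and Zeb1 at 53.3 against 14.1, a ratio of 3.77 (3.03 to 4.65). Smaller ratios were found for Tcf4 (2.60), Snai1 (2.60) and Twist1 (2.09), with Twist2 at 3.15. Snai2 had a ratio of 0.992 (0.650 to 1.46), that is 13.0 against 13.1 CPM. The epithelial factors were at 1.39 against 11.3 CPM for Grhl2 (3 against 309 UMIs) and at 2.32 against 19.7 for Ovol1 (5 against 539 UMIs). The interval of Snai2 held 1 and those of the other mesenchymal factors lay above it. These intervals cover counting error in 1 tumor, and the share of all genes with intervals above 1 was not counted.

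BRCA1-null A had a flatter pattern. Zeb1 was at 62.7 CPM in cells without and 34.5 in cells with an Epcam UMI, a ratio of 1.82 (1.33 to 2.46), Prrx1 at 23.4 against 9.49 (ratio 2.46, 1.41 to 4.20) and Snai1 at 20.2 against 8.62 (ratio 2.34, 1.28 to 4.14). Tcf4 had a ratio of 1.41 (1.08 to 1.81). Twist1 was at 31.9 against 37.5 CPM and Snai2 at 8.50 against 7.76. Zeb2 was at 15.9 against 11.2 CPM (ratio 1.42, 0.744 to 2.57), and Twist2 had a ratio of 0.636 (0.163 to 1.80). Ovol1 was at 1.06 against 1.72 CPM (ratio 0.616, 0.0139 to 4.60). The intervals of Zeb2, Twist2 and Ovol1 held 1. Grhl2 had 0 UMIs in the cells without and 15 in the cells with an Epcam UMI, and the interval of the ratio, 0 to 1.37, includes no difference.

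In the fit over 12 sums (3 tumor types, 2 libraries and 2 kinds of cell, with the library as a block), 5 of the 10 factors passed between cells without and with an Epcam UMI in BRCA1-null tumors (edgeR, adjustment over 11746 genes). Zeb1 (log2 change 1.39 ± 0.43, adjusted p = 0.032), Zeb2 (1.57 ± 0.47, 0.023) and Prrx1 (1.71 ± 0.47, 0.011) were higher, where 2.45% of all genes were higher, and Grhl2 (-3.22 ± 0.92, 0.017) and Ovol1 (-2.77 ± 0.78, 0.014) were lower, where 2.11% were lower. Snai1 (1.30 ± 0.46, 0.086), Tcf4 (0.94 ± 0.42, 0.25), Twist2 (0.84 ± 0.67, 0.71), Twist1 (0.48 ± 0.45, 0.80) and Snai2 (0.03 ± 0.61, 0.99) did not pass. The PyMT and Neu sums of 5 to 11 cells without an Epcam UMI entered the spread of this fit. The calls rest on BRCA1-null B: the median log2 change of the 8 mesenchymal factors was 1.12 here, 0.433 without B and 1.51 without A. By DESeq2 none passed (2 at an unadjusted p under 0.05), nor with the 4 BRCA1-null sums alone in edgeR (6 at an unadjusted p under 0.05). With collagen-rich cells removed, Grhl2 (adjusted p = 0.18) and Ovol1 (0.059) no longer passed in edgeR and Snai1 (0.032) did, which made 4 calls. With Epcam read at 3000 UMIs in every cell 6 passed, where Snai1 (0.00097) and Twist2 (0.0013) joined and Zeb2 (0.20) was lost.

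The same split could not be compared with PyMT and Neu. The interaction term called 0 of 10 factors, against 3.12% of all genes higher and 0.0255% lower (edgeR, 1 factor at an unadjusted p under 0.05), DESeq2 called 3 lower (Zeb2, Snai2 and Prrx1), and with only 5 to 11 cells on the Epcam-free side of each PyMT and Neu library the median log2 term over all genes was 5.28, so that neither answer can be read.

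Marker genes of other cells moved with this split, and their part in it was not tested beyond the following values. In BRCA1-null B, cells without an Epcam UMI summed to 1015 CPM over 7 pericyte markers (93.6 in cells with one, Rgs5 at 606.9 against 35.9), 3454 CPM over 8 fibroblast markers (553.2) and 389.9 CPM over 10 leukocyte markers (84.4), mostly Fcer1g at 260.6 CPM, with Ptprc (CD45) at 5.10 CPM. Over 8 endothelial markers they summed to 43.6 CPM (18.5) with Cdh5 and Tie1 at 0. In A the endothelial sum was 194.5 against 41.4 CPM and the leukocyte sum 71.2 against 62.5 CPM, with Ptprc, Cd3e, Cd79a and Cd52 at 0. The Epcam-free cells of B without 2 pericyte markers (180 of 288) still held 150.6 CPM of Prrx1, 79.9 of Zeb2, 57.6 of Zeb1 and 146.0 of Twist1, with Grhl2 at 1.54 (2 UMIs). Removing cells with 2 leukocyte or endothelial markers left the same 5 calls.

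Collagen divided the cells in another way. Cells with at least 20 UMIs of Col1a2 and Col3a1, fibrillar collagen chains, per 10000 UMIs were 369 of 2078 in BRCA1-null B, 4 of 245 in A, 4 of 1751 in 4T1 and 2 in all of PyMT and Neu, and 107 cells of B lay between 15 and 25. Of the 369 cells 225 (61.0%) had an Epcam UMI, at an Epcam level of 167.2 CPM against 2152 in the other cells of B.

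In BRCA1-null B the collagen-rich cells held 166.2 CPM of Prrx1 against 32.2 in the other cells, a ratio of 5.16 (4.65 to 5.73). Twist2 stood at 28.5 against 4.26 CPM, a ratio of 6.69 (5.09 to 8.79), Zeb1 at 59.3 against 10.5 and Zeb2 at 88.1 against 15.7. Snai1 was at 48.4 against 12.3 CPM and Tcf4 at 132.6 against 43.1. Twist1 had 93.1 against 61.9 CPM, a ratio of 1.505 (1.34 to 1.69), and Snai2 8.40 against 13.8 CPM with a ratio of 0.609 (0.413 to 0.871). Grhl2 was at 1.02 against 12.03 CPM and Ovol1 at 2.80 against 20.8.

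Over the 4 BRCA1-null sums 6 factors passed as higher in collagen-rich cells (edgeR with the library as a block and 1 residual degree of freedom, adjustment over 11115 genes), against 4.39% of all genes, and 0 as lower, against 2.12% (2 at an unadjusted p under 0.05, Grhl2 and Ovol1). They were Twist2 (log2 change 4.63 ± 0.67, adjusted p = 6.7e-10), Snai1 (2.87 ± 0.60, 0.00010), Prrx1 (2.31 ± 0.60, 0.0035), Tcf4 (1.92 ± 0.51, 0.0050), Zeb1 (2.05 ± 0.58, 0.011) and Zeb2 (2.12 ± 0.65, 0.023). Twist1 (0.86 ± 0.55, 0.52), Snai2 (-0.48 ± 0.89, 0.91), Grhl2 (-3.53 ± 1.32, 0.094) and Ovol1 (-2.86 ± 1.09, 0.10) did not pass. A gives 4 collagen-rich cells, in which 24 of the 35 Twist2 UMIs of that library lay. The Twist2 ratio was 190.0 in A and 6.69 in B, a difference that its adjusted p does not measure. Under DESeq2, at a threshold of 50, or without the block Twist2 and Snai1 alone passed. At a threshold of 10 the same 6 passed and Ovol1 passed as lower (edgeR, adjusted p = 0.039).

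The mesenchymal factors were not confined to the cells above the collagen threshold of 20. At a threshold of 10, 493 cells of BRCA1-null B counted as collagen-rich in place of 369. Of its 288 cells without an Epcam UMI, 108 had at least 2 pericyte markers. Cells between these thresholds and pericyte-marked cells may be among those that follow, and their part in the levels was not tested. In BRCA1-null B, cells with neither an Epcam UMI nor high collagen (144 cells) held 157.8 CPM of Prrx1, 91.8 of Zeb2, 51.6 of Zeb1, 41.2 of Snai1 and 22.7 of Twist2, beside the collagen-rich levels above, and 153.6 CPM of Twist1 and 19.6 of Snai2. Against the 1565 cells with an Epcam UMI and without high collagen the ratios were 7.20 (5.62 to 9.13) for Zeb2, 6.42 (3.83 to 10.3) for Twist2, 5.80 (4.18 to 7.91) for Zeb1 and 5.79 (4.82 to 6.91) for Prrx1. Among collagen-rich cells, in turn, 7 of the 8 ratios between cells without and with an Epcam UMI had intervals that held 1, with Prrx1 at 169.3 without and 164.8 CPM with one (ratio 1.03, 0.866 to 1.22), Zeb1 at 54.8 and 61.3 (0.894, 0.661 to 1.197) and Zeb2 at 96.9 and 84.2 (1.15, 0.912 to 1.45). Twist2 was the exception, at 18.5 without and 32.8 with (0.565, 0.337 to 0.908). The share of all genes whose intervals held 1 was not counted.

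Markers of other cells moved with collagen too. The collagen-rich cells of B summed to 4649 CPM over the fibroblast markers against 168.9 in the others, to 550.2 against 101.1 CPM over the pericyte markers and to 313.8 against 74.9 CPM over the leukocyte markers, of which Fcer1g made up 300.8 CPM while Ptprc, Cd3e and Cd79a were at 0. The fibroblast list holds Col1a1, a collagen gene like those by which the cells were chosen. Its sum was therefore not free of that choice. The 205 collagen-rich cells without 2 pericyte markers held 162.4 CPM of Prrx1, 83.8 of Zeb2 and 69.6 of Zeb1 and no Grhl2 UMI. Whether the cells are of tumor or stromal origin was not tested here. The study classed the cells of its own mesenchymal BRCA1-null cluster as tumor cells, from copy number changes inferred from expression. Whether the collagen-rich cells match that cluster was not tested.

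**Figure D4:**
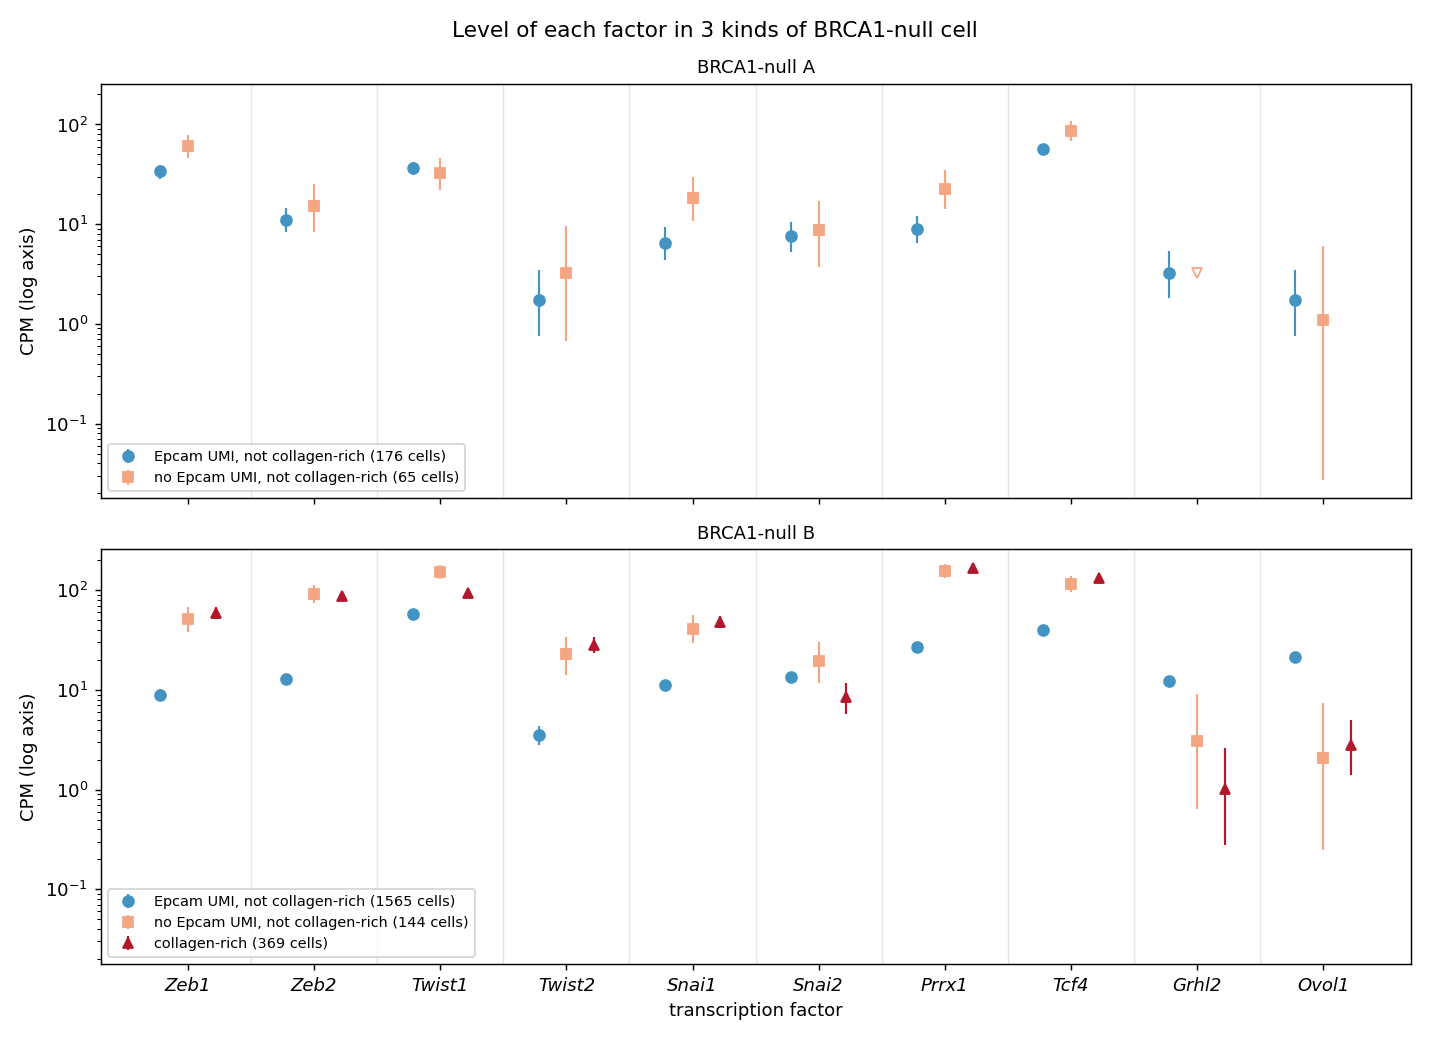
CPM (log axis) of each factor in BRCA1-null A (top) and B (bottom) for cells with an Epcam UMI and without high collagen, cells with neither, and collagen-rich cells (B only, since A has 4), with exact 95% Poisson intervals for counting error. The open triangle is the limit of 3 counts where no UMI was seen. In B, Zeb1, Zeb2, Twist2, Snai1, Prrx1 and Tcf4 are above the cells with an Epcam UMI in both other kinds of cell, and Grhl2 and Ovol1 below them.

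Cell by cell in BRCA1-null B, at 3000 UMIs, an Epcam UMI was seen in 27 of 101 cells with a Zeb1 UMI (26.7%) and in 77.1% of the 1800 cells without one. The share was 31.0% among cells with and 81.2% among cells without a Prrx1 UMI, and 32.1% and 78.5% for Zeb2. It was 54.3% and 77.8% for Twist1, 54.5% and 78.2% for Tcf4, and 65.4% (54.0 to 75.7) and 74.8% for Snai2. On the epithelial side 58 of 60 cells with a Grhl2 UMI (96.7%) and 89 of 93 with an Ovol1 UMI (95.7%) also had one of Epcam. Among cells without these the shares were 73.7% for Grhl2 and 73.3% for Ovol1. Vim was seen in 97.6% of cells with and 73.8% of cells without a Prrx1 UMI. The shares were 47.3% and 78.5% for Ovol1 and 63.3% and 77.4% for Grhl2. In BRCA1-null A the Epcam shares were 23.1% (8.97 to 43.6) and 32.7% (26.1 to 39.7) for Zeb1. They were 20.0% (6.83 to 40.7) and 33.0% (26.5 to 40.0) for Twist1 and 23.5% and 33.0% for Tcf4. Vim in A was seen in 73.1% of cells with and 69.9% without a Zeb1 UMI. The intervals overlap in each of these, so the contrasts of B were not seen in A.

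In BRCA1-null B, Zeb1 was found in 16.1% of 255 Prrx1 cells (11.8 to 21.2) against 3.65% of the other cells (2.79 to 4.67), and in 11.3% of 168 Zeb2 cells (6.95 to 17.1) against 4.73% (3.78 to 5.84). For 276 Twist1 cells the shares were 7.97% (5.06 to 11.8) and 4.86% (3.87 to 6.02), whose intervals overlap. In BRCA1-null A, Zeb1 was found in 1 of 25 Twist1 cells (4.0%, 0.101 to 20.4) against 12.7% of the others (8.38 to 18.2) and in 4 of 34 Tcf4 cells (11.8%) against 11.7%, with overlapping intervals. In 4T1, Zeb1 was found in 0 of 124 Zeb2 cells (up to 2.93%) against 0.448%. Grhl2 was found in 1 of 255 Prrx1 cells (0.392%, 0.00993 to 2.17) against 3.58% of the others, while for Zeb1 cells the shares were 2.97% (3 of 101 cells, 0.617 to 8.44) and 3.17%, a difference not detectable at this depth. Cells with a UMI of a factor differ in depth from the rest (medians of 11020 and 12949.5 UMIs for Zeb1). In BRCA1-null B, Krt14, a basal keratin, was seen in 34.5% of Prrx1 cells against 63.9% of the others. It was seen in 54.3% of Snai2 cells against 60.2%, and in 73.3% of Grhl2 cells against 59.5%. Among Zeb1 cells and the others the Krt14 shares of B were 39.6% and 61.1%. Those of A were 15.4% (4.36 to 34.9) and 4.59% (2.12 to 8.54), with overlapping intervals.

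Other genes of the transition were read in the fits above by lists, beside 17.8% of all genes higher and 9.72% lower in the contrast of BRCA1-null with PyMT and Neu. Against PyMT and Neu, all 24 mesenchymal genes were higher in BRCA1-null (median log2 change 6.71, against 0.09 over all genes), led by Pdpn (7.06), Itga5 (7.14) and Vim (5.52). Of 26 junction, keratin and splicing genes 13 were lower and 1 higher (median -1.84), led by Marveld2 (-2.56), Llgl2 (-3.00) and Pkp3 (-1.56). Of 13 tested among 16 further EMT factors 4 were higher and 1 lower, led by Prrx2 (5.79), Hmga2 (3.83) and Foxq1 (3.07). Of 15 further epithelial factors 4 were higher, among them the basal factor Trp63 (5.29) and Grhl3 (5.65), and 4 lower, among them the luminal factor Gata3 (-3.10). Of 18 genes of the TGF-beta pathway, a classical inducer of the transition, 4 were higher and 2 lower, shares near those of all genes, with Tgfbi (7.91), Ltbp1 (2.37) and Inhba (3.55). Basal markers were higher for 6 of 7 tested, led by Acta2 (7.87).

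The same lists were read in the Epcam split inside BRCA1-null tumors, where 2.45% of all genes were higher and 2.11% lower. Of the 26 junction, keratin and splicing genes 21 were lower in cells without an Epcam UMI and 0 higher (median -2.88, against -0.03 over all genes), led by Krt19 (-4.15), Cldn4 (-3.97) and Krt18 (-3.03), and of the mesenchymal genes 17 of 24 were higher (median 1.72), led by Col6a2 (2.54) and Col6a1 (2.45). Of 14 further epithelial factors tested 4 were lower, led by Elf5 (-2.74), Ovol2 (-4.84) and Foxa1 (-4.67). Of 11 further EMT factors tested none passed by edgeR, the nearest being Prrx2 (1.36, adjusted p = 0.089). Over all genes the split called 288 higher and 248 lower, but 0 of either with no replicate block, 27 and 30 by DESeq2, and 31 and 23 without BRCA1-null B. In collagen-rich cells, where 4.39% of all genes were higher and 2.12% lower, Prrx2 passed as higher (3.77). So did 19 of 24 mesenchymal genes, led by Mmp2 (5.33), Col6a2 (5.37) and Col6a1 (5.30), and 15 of 25 junction genes were lower. The mesenchymal list holds collagen genes, among them Col6a1 and Col6a2. Its count was therefore not free of the choice of these cells by collagen.

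The genes whose levels ran most like a factor across the 7 libraries (Pearson r of log2(CPM + 1), among 7240 genes with a mean of at least 10 CPM) were Id4 (0.997), Pdpn (0.990) and Atn1 (0.990) for Zeb1, and Praf2 (0.997), Id1 (0.997) and Zxdc (0.991) for Twist1. For Snai2 they were Sox11, Gpx7 and Jam3 (0.998, 0.998 and 0.997), and for Grhl2 Fam208a (0.979), Gigyf2 (0.967) and Kdsr (0.954). With 7 libraries of 4 kinds these are descriptions, and 55 to 58 genes exceeded 0.95 for each of Zeb1, Twist1 and Snai2 but 3 for Grhl2.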

How the data were processed

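Cells of 7 tumors were profiled with the 10x 3′ kit (version 2 chemistry). For each tumor the authors deposited a matrix of raw UMI counts (genes by barcodes) from Cell Ranger on mm10. The submitters' processing notes name versions 2.2.0 and 3.0.2, every matrix header names 3.0.2, and for the aligner a version is not given in the sources here.

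Of 13745 barcodes 12168 passed the cell filter given in the report. Levels are CPM over the UMIs in cells, with exact Poisson 95% intervals, and shares of cells have exact Clopper-Pearson intervals after thinning to 3000 UMIs. Intervals and floors of 3 counts cover counting error only. UMIs were summed per library, and per kind of cell, and compared by the quasi-likelihood test of edgeR 4.0.16 (R 4.3.3, limma 3.58.1) after filterByExpr and TMM scaling, with p-values adjusted by Benjamini-Hochberg over every gene in the fit. The PyMT, Neu and BRCA1-null libraries shared 1 fit. The split by Epcam and the collagen comparison used the library as a block, and 4T1 entered no test. Folds come from the TMM fit and levels do not, and 3′ counts were not compared between genes. The scripts were tested on simulated counts. Positions are from GENCODE M21 on GRCm38 and promoter sequences from RefSeq on GRCm38.p6.

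The members and gene lists were chosen with earlier results of these data known. All 10 members are named, and of each other list at most the 3 genes with the smallest adjusted p in the comparison described, besides Brca1, Trp53, Epcam, Vim, Krt14 and markers of other cells. One gene that this rule would name is not reported here. Prrx2 in the Epcam split is named outside this rule, after its value was seen. The descriptions without pericyte-marked cells (a UMI of at least 2 pericyte markers) were also added after seeing the data. Scrublet called 78 doublets (0.641%), 13 of them in BRCA1-null A, and they were kept in the main analysis and removed in an alternative. Same-lettered replicates of different tumor types had correlations of their deviations of 0.0592, 0.118 and 0.169, so the letters were not taken as pairs. Alternatives were DESeq2 1.42.0, its size factors, no filter on low counts, other cell filters, removal of marked or collagen-rich cells, other collagen thresholds, the replicate block and leaving out each library.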

Additional observations from a re-analysis of the deposited data

How the results depend on the processing

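Against PyMT and Neu averaged, 7 factors passed in each alternative that kept all 6 libraries, the replicate block included. Of 13799 to 20397 genes tested, 2315 to 3727 were higher in these. With 1 library left out, the median log2 change of the 8 mesenchymal factors ran from 5.49 to 6.38. Between PyMT and Neu, 5 factors passed without a filter on low counts, where 1623 of 20397 genes were higher and 1960 lower. It was 2 with collagen-rich cells removed (1043 and 1299 of 13799 genes) and 1, Twist1, with the replicate block (1014 and 1215 of 13950). The Twist1 change ran from 4.33 to 5.14 over all alternatives. For the Epcam split in BRCA1-null tumors, counts of all genes higher and lower stand in brackets. By DESeq2 0 factors passed (27 and 30 of 11746), without a filter 3 (206 and 229 of 20397), and with no replicate block 0 (0 and 0). With the 4 BRCA1-null sums alone 0 passed (61 and 46 of 10962). It was also 0 there with marked cells removed (20 and 32 of 10258) or collagen-rich cells removed (53 and 39 of 10380), both chosen after seeing the data. In the fit over 12 sums 4 passed, all higher, with collagen-rich cells removed (203 and 152 of 11283). With Epcam read at 3000 UMIs 6 passed (318 and 410 of 12387). With 1 library left out, the median log2 change of the 8 mesenchymal factors ran from 0.433 to 1.51. The interaction gave 3 by DESeq2. In collagen-rich cells 2 factors passed by DESeq2 (330 genes higher and 85 lower of 11115) and 2 at a threshold of 50 (356 and 174 of 10587). With no replicate block 2 passed (214 and 17 of 11115). At a threshold of 10 there were 7, 1 of them lower (541 and 301 of 11439). Changes of sign were seen for values that had not passed. In log2 units, Grhl2 in BRCA1-null went from -1.85 to 0.38 over the left-out libraries, Zeb1 in PyMT against Neu from -0.83 to 0.11, and Snai2 there from -0.75 to 1.42. Prrx1 there was 0.54 with collagen-rich cells removed. In the Epcam split Twist1 went from -0.30 to 1.06, Twist2 from -0.72 to 1.65 and Snai2 from -0.0165 to 0.0652, with Snai2 at -0.0244 without a filter, and in collagen-rich cells Snai2 was 1.02 in BRCA1-null A alone, from 1 UMI in 4 cells (ratio 2.03, 0.0501 to 11.9). The cause was not tested. DESeq2's size factors moved the median of all genes in the Epcam split from -0.03 to 0.12 and in the collagen comparison from -0.12 to -0.23. BRCA1-null A, with 245 cells, limits what both comparisons within BRCA1-null tumors can show.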
